A study of Mus musculus with 6 samples.

Results

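The genes described here are 8 transcription factors that set intestinal and proximal identity: the caudal homeobox genes Cdx1 and Cdx2, the ParaHox gene Pdx1, the zinc finger genes Gata4, Gata5 and Gata6, and the nuclear receptor genes Hnf4a and Hnf4g. They were taken by symbol from the deposited gene tables, where each had 1 of 23699 rows. The set was chosen with earlier results of these data known. RNA was sequenced from the duodenum of 3 mutant and 3 control mice, all 6 weeks old and on a mixed background, with 1 library per animal. Mutants 1, 2 and 3 carried Nkx2.2flox/TN, Villin-Cre/+ and Rosa26Tomato/+. Controls 1 and 2 carried Nkx2.2flox/+ with Rosa26Tomato/+, and control 3 carried Nkx2.2flox/+ alone, so all 6 animals had a floxed Nkx2.2 allele. Villin-Cre is a Cre recombinase driven in intestinal epithelium. Nkx2.2 is a homeodomain factor of enteroendocrine cells, and TN is an allele with a mutated tinman domain. Cre, the TN allele and the number of intact Nkx2.2 copies all differ between the groups and cannot be told apart. The tissue was the whole wall of the first 2 cm of intestine, so a lower level can reflect fewer epithelial cells or less RNA per cell, which cannot be told apart.

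CDX1 and CDX2 are homeodomain proteins that give the gut epithelium its intestinal, as opposed to gastric, character. GATA4 marks the proximal intestine and keeps ileal genes silent there, with GATA6 throughout the intestine and GATA5 mainly on differentiated cells. PDX1 marks the duodenum, where it is made in epithelium next to the pancreas that also depends on it, and HNF4A and HNF4G bind enterocyte genes of lipid handling and the brush border. The comparison asks whether the levels of these factors differed between the mutant and control genotypes.

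None of the 8 factors differed between mutant and control duodenum beyond the spread between animals. Of the 8, 2 had a higher mean log2 level in mutants and 6 a lower one. The log2 fold changes, mutant minus control, lay between −0.19 for Hnf4g and 0.13 for Gata5. In limma on log2(FPKM + 0.1), where FPKM is fragments per length of transcript, scaled to the mapped fragments of the library, no member passed an adjusted p of 0.05, and their adjusted p ran from 0.79 to 0.99. Of all 15864 genes tested, 0% passed it. At an unadjusted p under 0.05 the count of members was 0, where 5.81% of all genes (922) were called, and no member had groups that did not overlap, where 13.1% of all genes did (3.13% with mutants higher and 9.92% with mutants lower). The 95% intervals of the fold changes together spanned 0.73 to 1.3 times the control level. A doubling or halving of the whole-wall level of any of the 8 thus lay outside its interval. Levels within single cell types were not measured. The median log2 fold change was −0.03 over the 8 members and −0.05 over all genes tested.

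Each factor was quantified through 1 RefSeq transcript model, and all 8 had a single transcript in the deposited transcript tables, with a level equal to that of the gene. None of the 8 transcripts passed an adjusted p of 0.05 when all transcripts were fitted with limma, where 0.0454% of 19827 did. The start of that model bears on Hnf4a and Gata4, each with 4 of 7 GENCODE transcripts starting elsewhere, over 1 kb away. Hnf4a has promoters P1 and P2 with different first exons, P1 being the main one of adult liver and P2 of the pancreas, with both known to be used in intestine. Promoter windows for 4 of the 8 genes were held in the RefSeq table for GRCm38.p6, and Cdx1, Gata4, Gata6 and Hnf4g had none there. Each window matched the mm9 sequence of its own chromosome at 1 place, and other chromosomes were not searched. The windows reach from 250 bases before to 50 bases after a transcript start. The 2 windows of Hnf4a are shown because only the second belongs to the quantified transcript, and those of Pdx1 and Cdx2 because these 2 genes are neighbours on chromosome 5. Capitals mark letters of 4 motifs searched on both strands: GATAA for GATA factors, TTTATG for CDX factors, CAAAGT for HNF4 factors and GTTAAT for HNF1 factors. A match on the opposite strand shows as the reverse complement, as for the HNF1 letters in the P1 window.
Hnf4a P2, chr2:163332343-163332642, plus strand, mm9: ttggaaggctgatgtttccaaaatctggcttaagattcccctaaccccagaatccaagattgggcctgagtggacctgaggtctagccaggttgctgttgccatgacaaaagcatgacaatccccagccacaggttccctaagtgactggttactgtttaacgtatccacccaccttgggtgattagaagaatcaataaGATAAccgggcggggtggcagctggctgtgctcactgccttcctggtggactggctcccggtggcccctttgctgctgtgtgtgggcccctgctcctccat
Hnf4a P1, chr2:163372641-163372940, plus strand, mm9: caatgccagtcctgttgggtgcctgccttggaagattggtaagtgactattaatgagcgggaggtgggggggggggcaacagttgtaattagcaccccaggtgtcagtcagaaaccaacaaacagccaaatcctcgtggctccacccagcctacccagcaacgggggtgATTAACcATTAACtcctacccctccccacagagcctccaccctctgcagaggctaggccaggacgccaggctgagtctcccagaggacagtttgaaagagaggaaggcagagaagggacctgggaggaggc
Pdx1, chr5:148081423-148081722, plus strand, mm9: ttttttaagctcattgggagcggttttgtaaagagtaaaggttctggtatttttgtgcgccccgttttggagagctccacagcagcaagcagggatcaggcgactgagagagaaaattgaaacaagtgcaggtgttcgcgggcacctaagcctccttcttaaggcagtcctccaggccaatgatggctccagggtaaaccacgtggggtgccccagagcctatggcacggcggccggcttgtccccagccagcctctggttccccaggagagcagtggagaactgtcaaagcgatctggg
Cdx2, chr5:148118776-148119075, minus strand, mm9: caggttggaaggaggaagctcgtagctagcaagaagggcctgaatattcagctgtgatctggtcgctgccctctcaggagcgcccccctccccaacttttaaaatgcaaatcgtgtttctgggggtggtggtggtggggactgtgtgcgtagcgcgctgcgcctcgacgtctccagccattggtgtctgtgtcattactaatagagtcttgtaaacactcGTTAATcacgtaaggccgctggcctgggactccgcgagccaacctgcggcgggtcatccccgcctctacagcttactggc

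The P1 window of Hnf4a starts its transcript 33 bases from the start of the quantified model, and the P2 window 40331 bases upstream of it. A transcript from P2 therefore had no model of its own in these tables, and its first exon was not counted. The P1 window held the HNF1 letters at 2 places, 81 and 74 bases before the start, and the P2 window held GATAA once, 51 bases before the start. The Cdx2 window held the HNF1 letters once, 30 bases before the start, and the Pdx1 window held none of the 4 motifs. Among all 32851 windows of the table, 25.4% held GATAA, 7.1% GTTAAT, 14.4% CAAAGT and 11.9% TTTATG. These matches describe letters in the windows and no binding was measured.

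Related members share short stretches of coding sequence, so shared reads had to be considered. The longest run of identical coding bases between 2 related members was 26 bases, in Gata4 and Gata5, and it crossed an exon junction in both genes. Hnf4a and Hnf4g shared at most 17 bases, Cdx1 and Cdx2 16, Gata4 and Gata6 18, and Gata5 and Gata6 15. The runs of Gata4 with Gata5 and of Hnf4a with Hnf4g are printed, and all their letters, in capitals, are identical in both genes. Stretches with mismatches were not examined, and how far reads of one gene were taken for the other was not tested.
Gata4 (mm9, chromosome 14, 63822234 to 63822519, minus strand, exons 4 and 5) and Gata5 (chromosome 2, 180062551 to 180063035, minus strand, exons 3 and 4): GGCCTCTACATGAAGCTCCATGGGGT
Hnf4a (mm9, chromosome 2, 163388285 to 163388301, plus strand, exon 6) and Hnf4g (chromosome 3, 3648064 to 3648080, plus strand, exon 6): CATCTGCTGCTTGGAGC
The length of the reads is not stated in the labels. Exons of Gata5 overlap those of Gm14318 and exons of Gata6 those of 1010001N08Rik, each on the opposite strand, and the kit used is not stated to keep strand. Gm14318 was below 1 FPKM in each library, and 1010001N08Rik has no row in the gene tables.

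The order of the 8 levels was the same in both groups at its top and its bottom. Hnf4a had the highest mean over the 6 libraries at 214 FPKM, followed by Hnf4g at 136, Pdx1 at 72.1, Gata4 at 71.2, Cdx2 at 66.6, Cdx1 at 54.7, Gata6 at 34.8 and Gata5 at 23.6 FPKM. FPKM is a level per length of transcript, which allows this comparison between genes. Pdx1 and Gata4, and Gata4 and Cdx2, could not be ordered beyond their spread: Pdx1 lay above Gata4 in 2 of 6 libraries, and Gata4 above Cdx2 in 5 of 6. The other 5 neighbouring pairs kept their order in 6 of 6 libraries without overlapping ranges. Hnf4a lay above 97.2% of all genes tested and Gata5, the lowest member, above 76%.

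**Figure D1:**
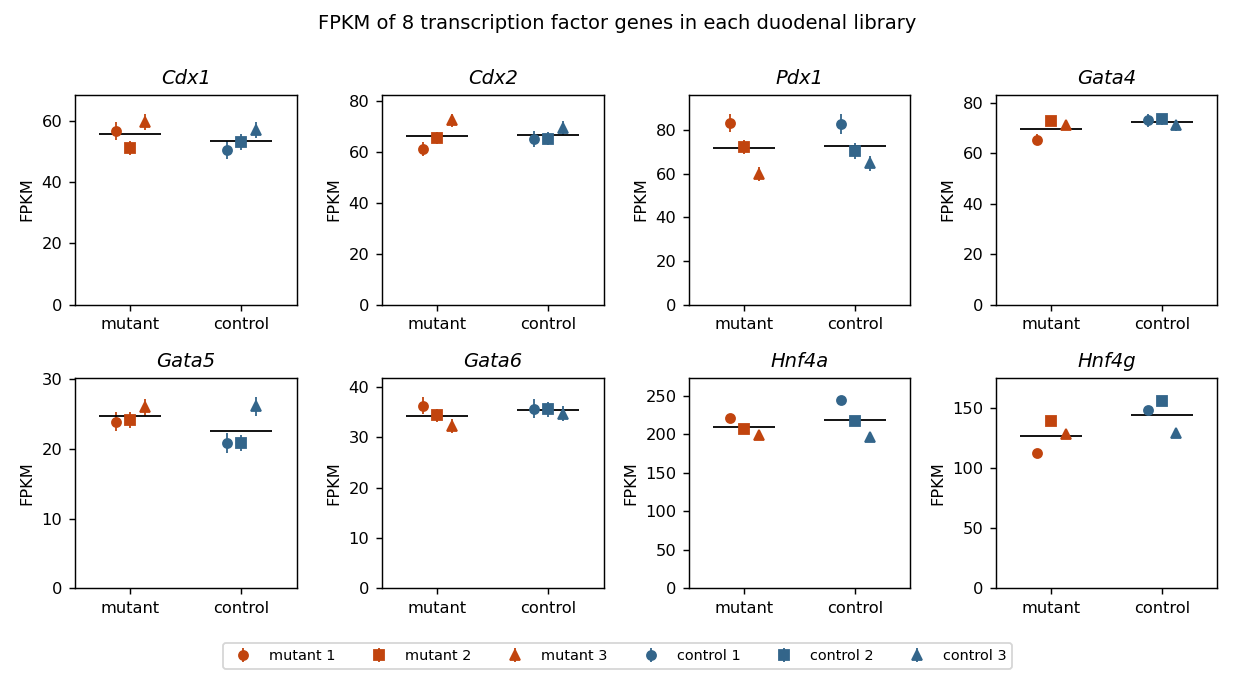
FPKM of each of the 8 factors in each library (vertical axis, from 0), mutants left and controls right; points are libraries 1 to 3 with the deposited Cufflinks interval, and the horizontal line is the group mean. The groups overlap for all 8 genes, and Pdx1 and Hnf4g spread most, with a highest library 1.39 times the lowest in each.

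The reads implied by the deposited intervals ran from 905 for Gata5 in control 1 to 22177 for Hnf4a in mutant 2, and an interval reached to each side by 1.34% to 6.65% of the level. For Gata6, whose highest library was 1.12 times the lowest, the interval reached 3.89% to 5.17% to each side. Depth over whole libraries ran from 16879261 to 25909530 implied reads in mutants and from 14206893 to 21246300 in controls. Nkx2-2, the targeted gene, had 0.748, 0.744 and 0.666 FPKM in mutants 1, 2 and 3 and 1, 1.03 and 1.27 FPKM in controls 1, 2 and 3. Epithelial transcripts were plentiful in all libraries, with a summed level of the 8 epithelial markers of 5028 to 5413 FPKM in mutants and 4783 to 5435 FPKM in controls. Transcripts of stomach were near the floor: the 10 gastric markers summed to 2.71 to 4.76 FPKM in mutants and 2.32 to 5.25 FPKM in controls, and Muc5ac, the gastric surface mucin, was listed at 0 throughout.

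Neither CDX gene differed between the groups beyond the spread of its libraries. Cdx1 (chromosome 18), which is made mainly in the crypt and lower villus, had 56.8, 51.1 and 59.7 FPKM in mutants 1, 2 and 3 and 50.5, 53.1 and 57 FPKM in controls 1, 2 and 3. One mutant lay above all controls and the rest fell among them. Its mean was 55.8 ± 4.39 FPKM in mutants and 53.5 ± 3.31 FPKM in controls (SD, n = 3 each), with a log2 fold change of 0.06 (SE 0.09, 95% interval −0.14 to 0.26) and an adjusted p of 0.89 in limma. Cdx2 (mm9 chromosome 5, 148112476 to 148118825, minus strand, protein coding), the factor without which mouse intestinal epithelium takes on gastric or esophageal traits, had 61.1, 65.6 and 72.6 FPKM in mutants 1, 2 and 3 and 65.3, 65.3 and 69.6 FPKM in controls 1, 2 and 3. The mutants spanned the whole range of the controls, with 1 above and 1 below all of them. Cdx2 averaged 66.4 ± 5.76 FPKM in mutants and 66.7 ± 2.5 FPKM in controls (SD, n = 3 each), a log2 fold change of −0.01 (SE 0.08, interval −0.21 to 0.19, adjusted p = 0.99 in limma). With trimmed mean scaling, with a median of all genes of 0 in place of −0.05, the value for Cdx2 was 0.04.

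Pdx1 varied more than the other homeobox members, within both groups alike. Pdx1 (mm9 chromosome 5, 148081707 to 148086725, plus strand, protein coding) lies 25.8 kb from Cdx2 with no protein-coding gene between them. It had 83.1, 72.1 and 59.9 FPKM in mutants 1, 2 and 3 and 82.7, 70.3 and 64.7 FPKM in controls 1, 2 and 3. The highest and the lowest library were both mutants, and the first library of each group was nearly equal. The mean was 71.7 ± 11.6 FPKM in mutants and 72.6 ± 9.21 FPKM in controls (SD, n = 3 each), with a log2 fold change of −0.02 (SE 0.14, interval −0.36 to 0.32, adjusted p = 0.98 in limma). Its direction was positive with trimmed mean scaling (0.03) and in male libraries only (0.02). The deposited model of Pdx1 ends 2859 bases before the GENCODE model does, so reads in that longer 3' end were not counted.

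Pancreatic RNA is of interest for Pdx1, which islet cells also make. The 13 acinar markers summed to 2721, 2853 and 11017 FPKM in mutants 1, 2 and 3 and to 224, 611 and 9586 FPKM in controls 1, 2 and 3, at most 1.54% of the summed FPKM of a library. All 13 had a higher mean log2 level in mutants, with a median log2 fold change of 3.16, and none passed the test in limma. The 2 libraries with most acinar RNA, mutant 3 and control 3, had the lowest Pdx1 of their groups. With the acinar level as a covariate the log2 fold change of Pdx1 was 0.13 (adjusted p = 0.83 in limma). Of the 7 islet markers, 3 were below the filter, among them Nkx6-1 and G6pc2 at 0 in each library, and the list summed to 4.02 to 7.95 FPKM in mutants and 0.96 to 6.39 FPKM in controls.

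**Figure D2:**
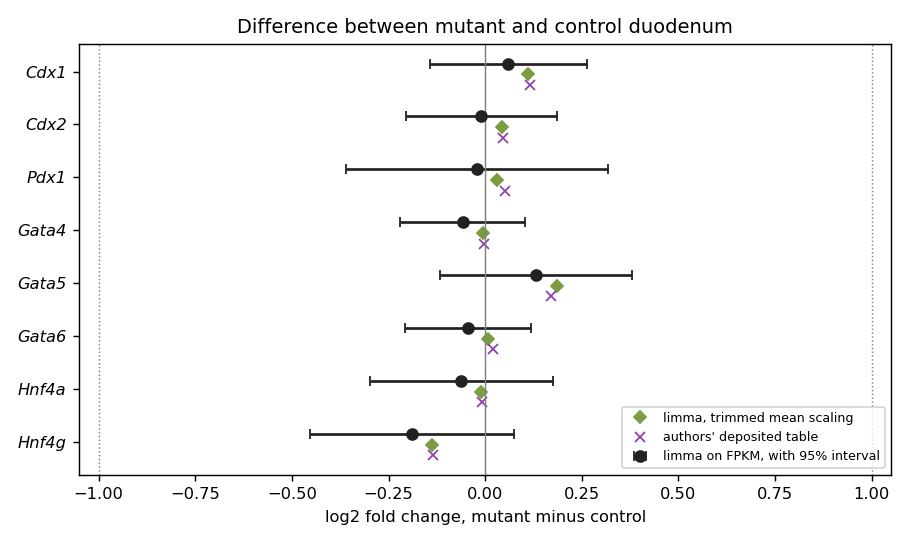
Log2 fold change of each factor, mutant minus control (horizontal axis): black points with 95% intervals are limma on log2(FPKM + 0.1), diamonds the same after trimmed mean scaling, and crosses the authors' deposited DESeq values. All 8 intervals include 0 and end inside the dotted lines at a log2 of −1 and 1.

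No GATA gene differed between the groups beyond the spread of its libraries. Gata4 (mm9 chromosome 14, 63817752 to 63864097, minus strand, protein coding), the proximal factor, had 65.4, 72.8 and 71.3 FPKM in mutants 1, 2 and 3 and 73.2, 73.5 and 71.2 FPKM in controls 1, 2 and 3. Mutant 1 lay below all controls, and mutants 2 and 3 lay within their range. Gata4 averaged 69.8 ± 3.91 FPKM in mutants and 72.6 ± 1.28 FPKM in controls (SD, n = 3 each), with a log2 fold change of −0.06 (SE 0.07, interval −0.22 to 0.1, adjusted p = 0.86 in limma). Its spread was among the narrowest: of 6630 genes at a mean of 10 FPKM or more, 90.9% had a larger SD of log2 level over the 6 libraries.

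Gata5 had the largest positive difference of the 8. Gata5 (mm9 chromosome 2, 180059793 to 180069384, minus strand, protein coding) had 23.9, 24.1 and 25.9 FPKM in mutants 1, 2 and 3 and 20.8, 20.9 and 26 FPKM in controls 1, 2 and 3. Each mutant lay above controls 1 and 2 and below control 3, so the order turned on 1 control. It averaged 24.6 ± 1.13 FPKM in mutants and 22.6 ± 3.01 FPKM in controls (SD, n = 3 each), with a log2 fold change of 0.13 (SE 0.1, interval −0.12 to 0.38, adjusted p = 0.81 in limma). Without control 3 the log2 fold change was 0.24 with an adjusted p of 0.76 in limma. In male libraries only it was 0.2 (interval 0.002 to 0.4), with an unadjusted p of 0.049 and an adjusted p of 0.94 in limma.

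Gata6 (chromosome 18), present in crypt and villus and also in smooth muscle, had 36.2, 34.3 and 32.2 FPKM in mutants 1, 2 and 3 and 35.7, 35.6 and 34.7 FPKM in controls 1, 2 and 3. Mutants 2 and 3 lay below all controls and mutant 1 above all of them. The mean was 34.3 ± 1.99 FPKM in mutants and 35.3 ± 0.558 FPKM in controls (SD, n = 3 each), a log2 fold change of −0.04 (SE 0.07, interval −0.21 to 0.12, adjusted p = 0.9 in limma). With trimmed mean scaling it was 0.01. The 10 smooth muscle markers summed to 557 to 717 FPKM in mutants and 738 to 1002 FPKM in controls. All 10 had a negative log2 fold change (61.3% of all genes had one), with a median of −0.44. In limma none of the 10 had an adjusted p under 0.05. At an unadjusted p under 0.05 in limma 9 were lower in mutants, where 4.32% of all genes were. For 8 of them each mutant lay below each control, where 9.92% of all genes did so. The part of smooth muscle in the level of Gata6 was not tested. The 3 GATA genes together summed to 129 ± 2.97 FPKM in mutants and 131 ± 1.19 FPKM in controls (SD, n = 3 each).

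The HNF4 genes, the most abundant of the set, did not differ between the groups beyond the spread of their libraries. Hnf4a (mm9 chromosome 2, 163372924 to 163398643, plus strand, protein coding) had 221, 207 and 200 FPKM in mutants 1, 2 and 3 and 244, 217 and 196 FPKM in controls 1, 2 and 3. The mutants lay within the range of the controls. It averaged 209 ± 10.8 FPKM in mutants and 219 ± 23.9 FPKM in controls (SD, n = 3 each), with a log2 fold change of −0.06 (SE 0.1, interval −0.3 to 0.17, adjusted p = 0.91 in limma). The sign was positive with the acinar covariate (0.05) and without control 1 (0.02).

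Hnf4g (mm9 chromosome 3, 3508030 to 3659800, plus strand, protein coding), which in mice shares its enterocyte targets with HNF4A, had 113, 140 and 128 FPKM in mutants 1, 2 and 3 and 148, 156 and 129 FPKM in controls 1, 2 and 3. Mutants 1 and 3 lay below all controls, and mutant 2 lay above control 3. Within each of the 3 same-numbered pairs the mutant was lower, and with the replicate number as a block the adjusted p was 0.61 in limma. Hnf4g averaged 127 ± 13.7 FPKM in mutants and 145 ± 14 FPKM in controls (SD, n = 3 each), with a log2 fold change of −0.19 (SE 0.11, interval −0.45 to 0.07, adjusted p = 0.79 in limma). The sum of both HNF4 genes was 333, 347 and 328 FPKM in mutants 1, 2 and 3 and 392, 373 and 325 FPKM in controls 1, 2 and 3, so control 3 lay below every mutant.

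The authors' deposited table, made with DESeq on read counts, gave the same picture for the 8 genes. Its adjusted p was 1 for each of them, where 0.0378% of 18541 genes passed 0.05, and its smallest unadjusted p among them was 0.283, for Gata5. In the authors' deposited table the log2 fold changes were 0.17 for Gata5, 0.12 for Cdx1, 0.05 for Pdx1, 0.05 for Cdx2 and 0.02 for Gata6. Negative values in the authors' deposited table were those of Hnf4g (−0.13), Hnf4a (−0.01) and Gata4 (0, as rounded). The signs of Pdx1, Cdx2 and Gata6 differ from those on FPKM.

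Ratios between related factors within a library do not depend on how libraries are scaled. Cdx2 over Cdx1 was 1.08, 1.29 and 1.22 in mutants 1, 2 and 3 and 1.29, 1.23 and 1.22 in controls 1, 2 and 3, always above 1. Gata4 over Gata6 was 1.8, 2.12 and 2.21 in mutants 1, 2 and 3 and 2.05, 2.06 and 2.05 in controls 1, 2 and 3, so the controls were almost equal and the mutants lay on both sides of them. Gata4 over Gata5 was 2.73, 3.01 and 2.74 in mutants 1, 2 and 3 and 3.51, 3.51 and 2.73 in controls 1, 2 and 3. Hnf4g over Hnf4a was 0.51, 0.675 and 0.643 in mutants 1, 2 and 3 and 0.608, 0.72 and 0.658 in controls 1, 2 and 3, below 1 in 6 of 6 libraries. The groups overlapped for each of the 4 ratios. The differences in mean log2 ratio, mutant minus control, were −0.07, −0.01, −0.19 and −0.13 for these pairs in that order, with exact two-sided permutation p of 0.4, 1, 0.4 and 0.5, and 0.67, 1, 0.67 and 0.67 after adjustment over the 4. The smallest p that 3 against 3 libraries can give is 0.1.

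**Figure D3:**
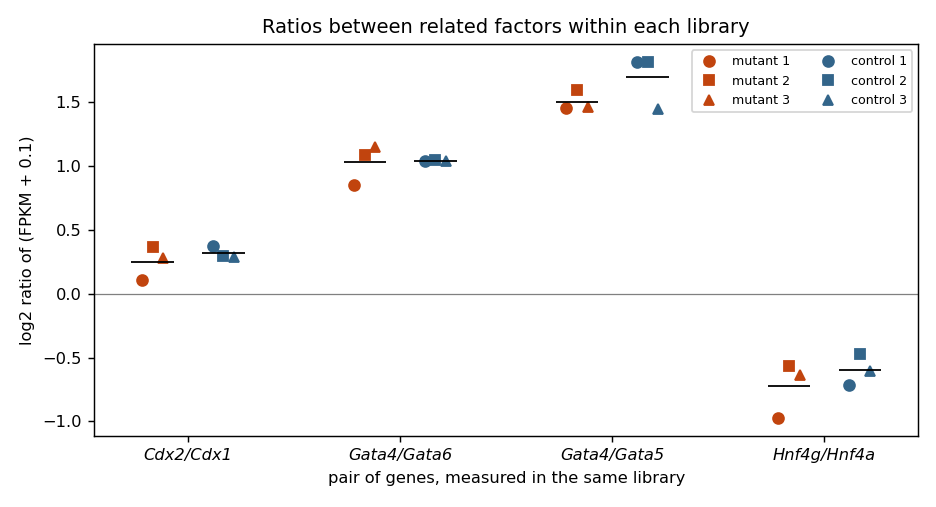
Log2 ratio of (FPKM + 0.1) between 2 related factors in the same library (vertical axis) for 4 pairs, mutants left and controls right in each pair; lines are group means and the grey line marks equal levels. The groups overlap in all 4 pairs, and mutant 1 is the lowest library for Cdx2 over Cdx1, Gata4 over Gata6 and Hnf4g over Hnf4a.

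Set against epithelial transcripts, the HNF4 pair separated the groups with 1 marker list and not with another. The mean log2 level of the HNF4 pair minus that of the 8 epithelial markers was −1.8, −1.63 and −1.64 in mutants 1, 2 and 3 and −1.49, −1.56 and −1.59 in controls 1, 2 and 3. Each mutant lay below each control, a difference of −0.15, with an exact two-sided permutation p of 0.1, the smallest possible, and 0.4 after adjustment over the 4 families. With 8 enterocyte markers in place of the epithelial ones the difference was −0.28 and the groups were not fully separated (exact permutation p = 0.2). The same difference was 0 for the CDX pair, −0.04 for Pdx1 and −0.01 for the GATA genes, each with an exact permutation p of 0.8, and their groups overlapped.

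Part of the variation between libraries ran the same way in both groups. By Xist and the Y-linked genes, mutant 3 and control 3 came from female mice and the other 4 libraries from males. These 2 libraries were the highest of their group for Cdx1, Cdx2 and Gata5 and the lowest of their group for Pdx1, Gata6 and Hnf4a. Thus 6 of the 8 members had the female library at the same end in both groups, where 36.1% of all genes tested did. Profiles among these 6 were partly correlated, as for Cdx2 and Pdx1 (Pearson's r = −0.904), so they are not 6 independent cases. The mean of the 2 female libraries was 0.809 times that of the 4 male libraries for Pdx1, 0.891 times for Hnf4a, 1.16 times for Gata5 and 1.1 times for each CDX gene. They were also the libraries with most acinar RNA of their group, so sex and acinar RNA cannot be told apart here. Control 3 lacked Rosa26Tomato, which mutant 3 carried.

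**Figure D4:**
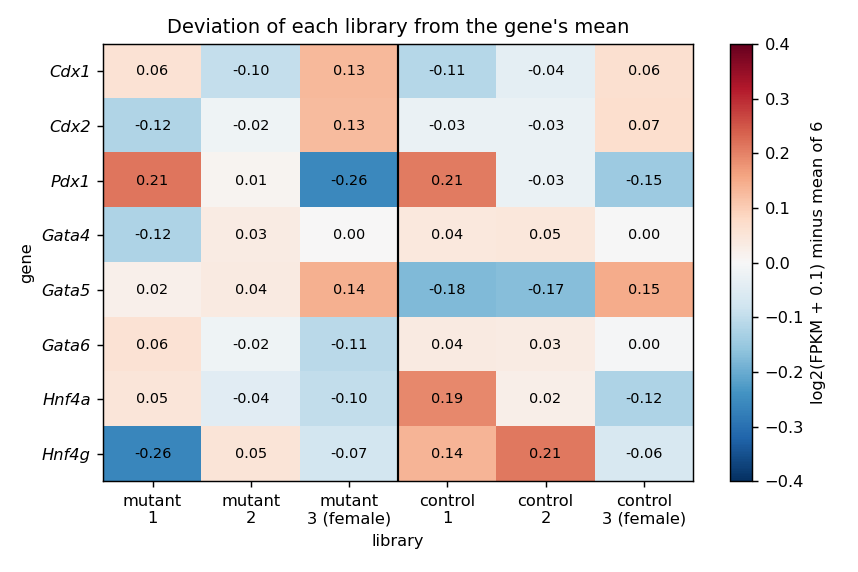
Deviation of log2(FPKM + 0.1) in each library from the mean of the 6 libraries, for the 8 factors (rows) and the libraries (columns, mutants left of controls); red is above the mean and blue below. Mutant 3 and control 3, the female libraries, share the sign for each factor except Gata4, and the largest deviations are −0.26 for Pdx1 in mutant 3 and −0.26 for Hnf4g in mutant 1.

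For each factor the genes with the most similar profile over the 6 libraries were looked up among 12570 genes with a mean of at least 1 FPKM, as a description of profiles that share libraries and depth. Hnf4a was followed most closely by Cdh1, the E-cadherin gene of epithelial cells (Pearson's r = 0.995 over 6 libraries), and by Bcl2l2. Pdx1 was followed by Cldn4, a claudin of tight junctions, and by Art2a-ps, and Cldn4 had 97.4, 68.5 and 48.7 FPKM in mutants 1, 2 and 3 and 97.2, 65.8 and 55.1 FPKM in controls 1, 2 and 3. The closest pairs of genes were Atp5h and Cacybp for Cdx1, Bcl2l12 and Rps3a for Cdx2, B3gnt2 and Calcrl for Gata4, Tbccd1 and 1110034G24Rik for Gata5, Llgl1 and Pdcd6ip for Gata6, and Lilrb3 and Wdr67 for Hnf4g. With 6 libraries such closeness is common: 220 genes for Pdx1 and 278 for Hnf4a had an r over 0.9.

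Other epithelial transcription factors that act with the 8 had mostly negative log2 fold changes, as did most genes, and none was called. Of 16 tested with limma, 0 had an adjusted p under 0.05, and 12 had a negative log2 fold change (61.3% of all genes did). The median was −0.11 against −0.05 over all genes. At an unadjusted p under 0.05 there were 4 lower, where 4.32% of all genes were, and 1 higher, where 1.49% were. Klf5, a Krüppel-like factor of proliferating crypt cells, had 57.9 ± 4.19 FPKM in mutants and 69.5 ± 6.75 FPKM in controls (log2 −0.26). Onecut2, a duodenal homeobox factor, had 13.7 ± 1.78 FPKM in mutants and 17.9 ± 3.16 FPKM in controls (log2 −0.38). Isx, an intestinal homeobox gene under CDX2, had 63.8 ± 8.6 FPKM in mutants and 51.3 ± 4.8 FPKM in controls (log2 0.31). Each of these 3 had an adjusted p of 0.79 in limma (SD, n = 3 each). Of the other family members and cofactors, Zfpm1, which encodes the GATA cofactor FOG1, had 33.8 ± 4.81 FPKM in mutants and 35.6 ± 1.21 FPKM in controls, Gata2 and Gata3 were below 1 FPKM in group mean, and 0 of 5 tested passed in limma.

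Genes known as targets of the 8 factors were described in the same way, and 0 passed an adjusted p of 0.05 in limma. Among 9 tested CDX targets, 7 had a positive log2 fold change, where 38.7% of all genes did, and the median was 0.04 against −0.05 over all genes. Of the 8 epithelial markers, which include Vil1 from the CDX targets, 6 were positive (median 0.03), and of the 8 enterocyte markers 7 (median 0.15). Most values were thus positive in these other lists as well. Mep1a, a brush border metalloprotease subunit, had 11.6 ± 2.28 FPKM in mutants and 5.38 ± 1.71 FPKM in controls (SD, n = 3 each), with a log2 fold change of 1.13 and an adjusted p of 0.79 in limma, and each mutant lay above each control. Sis, sucrase-isomaltase, and Cdh17, a cadherin of the intestine, had log2 fold changes of −0.07 and −0.03, and Cldn2, the crypt claudin, had 0.15. Muc2 has no row in the gene tables.

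The targets of GATA4 include ileal genes that it keeps low in the proximal intestine. Slc10a2, the ileal bile acid transporter, averaged 0.674 ± 0.297 FPKM in mutants and 0.494 ± 0.0419 FPKM in controls, and Fabp6, the ileal bile acid binding protein, 0.651 ± 0.648 FPKM in mutants and 0.814 ± 0.25 FPKM in controls (SD, n = 3 each). Both stayed below 1 FPKM in group mean. Osta and Ostb, the subunits of the basolateral bile acid exporter, averaged 138 and 125 FPKM in mutants and 128 and 127 FPKM in controls. Their log2 fold changes were 0.1 and −0.03, and Lct, lactase, a proximal gene, had 0.21. Of 7 tested, 4 were positive, where 38.7% of all genes were, and the median was 0.09.

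Among 11 tested HNF4 targets, 10 had a positive log2 fold change, where 38.7% of all genes did, and the median was 0.17 against −0.05 over all genes. Espn, espin, an actin bundler of microvilli, had 93.7 ± 4.95 FPKM in mutants and 80.5 ± 6.13 FPKM in controls (SD, n = 3 each), each mutant above each control, with a log2 fold change of 0.22 and an adjusted p of 0.79 in limma. Cideb, a lipid droplet protein, had a log2 fold change of 0.19, and Apoc3, an apolipoprotein, 0.55. Apob, the structural protein of chylomicrons, was the 1 negative member at −0.24. These genes were chosen with earlier results of these data known and share enterocytes as a source, so the count is a description. Of the 8 enterocyte markers, which include Fabp2 and Apoa4 from this list, 7 also had a positive log2 fold change, with a median of 0.15. Gip and Sst, hormone genes linked to PDX1 in mouse duodenum, had log2 fold changes of 0.23 and 0.13 with adjusted p of 0.86 and 0.87 in limma.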

How the data were processed

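Duodenal RNA from 3 mutant and 3 control mice was sequenced from TruSeq RNA libraries, per the labels' protocols, and groups came from the titles. The authors worked on mm9 with TopHat and Cufflinks, after CASAVA 1.8.2, and with DESeq, according to the submitters' processing notes. The authors deposited FPKM with an interval per gene and per transcript, per the file headers, and coverage (a signal of mean read depth) per transcript. The authors' deposited DESeq table holds mean size-factor-scaled signal per group, the fold as a ratio and as log2, and unadjusted and adjusted p-values. Locus starts in the files count from 0 and are printed from 1.

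Levels as log2(FPKM + 0.1) were fitted with limma 3.58.1 (R 4.3.3; trended variance) for those 15864 of 23699 rows whose mean FPKM reached 0.1. All 8 members passed this filter. P-values were adjusted by Benjamini-Hochberg over all rows, with a threshold of 0.05. The fit was tested on simulated data with known fold changes. At an adjusted p under 0.05 in limma it called 14.3% of the 1.5-fold and 64.9% of the 2-fold changes. Fold changes keep the scale of log2(FPKM + 0.1), which understates those of low genes. Single values were compared with an exact two-sided permutation test. Implied reads are the square of FPKM over its standard error, taken from the upper bound. The intervals cover counting error only. P-values in limma set the difference between groups against the spread between animals, with a variance that borrows from all genes. Members and gene lists were chosen with earlier results of these data known. The genes named from a list are the 3 with the smallest unadjusted p, and others are named with their values as examples chosen after those were seen. For each factor 2 genes with the highest Pearson correlation were named. Of the listed symbols, Muc2 and Myo15b had no row. Same-numbered mutant and control libraries had correlations of their deviations of 0.106, 0.207 and 0.389 over 15864 genes, and differently numbered ones of −0.275 to 0.127, with mutant 2 and control 1 (0.127) above the first same-numbered pair. The replicate number was also tried as a block. Alternatives were 2 other pseudocounts, 2 other filters, 2 scalings, no trend, the block, an acinar covariate, male libraries only and leaving out each library.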

Additional observations from a re-analysis of the deposited data

How the results depend on the processing

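No member passed an adjusted p of 0.05 in limma in any of 128 values (8 members under 16 alternatives), and their smallest adjusted p was 0.61, for Hnf4g with the replicate block. Their log2 fold changes stayed between −0.28 and 0.24, and the intervals between −0.61 and 0.47. At an unadjusted p under 0.05 there were 2 such values, both for Gata5. Gata4, Gata5 and Hnf4g kept their sign in all 16, and 12 values of the other 5 members changed sign; the cause was not tested. With trimmed mean scaling these were Cdx2 (0.043), Pdx1 (0.031) and Gata6 (0.0076), with the acinar covariate Cdx1 (−0.014), Pdx1 (0.13) and Hnf4a (0.050), and in male libraries only Pdx1 (0.023). With 1 library left out the ranges were 0.01 to 0.12 for Cdx1, −0.075 to 0.049 for Cdx2, −0.13 to 0.102 for Pdx1, −0.09 to −0.01 for Gata4, 0.08 to 0.24 for Gata5, −0.09 to 0 for Gata6, −0.14 to 0.018 for Hnf4a and −0.27 to −0.11 for Hnf4g.

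The ratios ranged, with 1 library left out, from −0.13 to 0.0026 for Cdx2 over Cdx1, −0.073 to 0.073 for Gata4 over Gata6, −0.31 to −0.13 for Gata4 over Gata5 and −0.21 to 0 for Hnf4g over Hnf4a. Against epithelial transcripts the ranges were −0.088 to 0.098 for CDX, −0.12 to 0.046 for Pdx1, −0.055 to 0.071 for GATA and −0.18 to −0.09 for HNF4. With enterocyte markers in place of epithelial ones the CDX value was −0.13 and the HNF4 value −0.28, where the exact permutation p for HNF4 was 0.2 in place of 0.1. The replicate block changed no call on a member. For ratios and families an exact test over 3 pairs cannot go below 0.25, so it says nothing of their stability. Over all genes, the number at an adjusted p under 0.05 was 0, 2 with the replicate block, 1 in male libraries only and 0 to 3 with 1 library left out (2 without control 2, 3 without mutant 1, 2 without mutant 2). The number of member transcripts called was 0 in each fit. Over all genes at an unadjusted p under 0.05, 237 were higher and 685 lower in mutants, against 516 and 400 with trimmed mean scaling, 360 and 431 with quantile normalization and 390 and 511 with the acinar covariate. With 3 animals a group, differences smaller than the intervals could not be seen.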

Other observations

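Among the 8 factors, some profiles ran together over the 6 libraries. Of 28 pairs, Gata4 and Hnf4g had the highest Pearson's r, at 0.916, and Cdx2 and Pdx1, the neighbours on chromosome 5, the lowest, at −0.904. The points share depth and tissue composition, and these are descriptions of 6 libraries. Gata4 and Gata6 varied less over the 6 libraries than most genes with a mean of at least 10 FPKM, with 90.9% and 92.5% of these 6630 genes more variable. Pdx1, Hnf4g and Gata5 varied more than most, with 20.7%, 25.5% and 35.9% more variable.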
